A study of Mus musculus with 18 samples.

Results

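A set of genes of the Polycomb repressive complexes was followed through RNA sequencing of mouse embryonic stem cells (ESCs) in which the endogenous deacetylases HDAC1 and HDAC2 could be removed and HDAC1 surface mutants put in their place. The 10 genes, Ezh1, Ezh2, Eed, Suz12, Jarid2, Rnf2, Ring1, Cbx7, Pcgf6 and Kdm2b, were taken by gene symbol, with earlier results of these data known. All 10 were among the 53672 genes listed and the 18791 that had enough counts to be tested. The study compared 3 rescue lines. Each derived from E14TG2a ESCs whose Hdac1 and Hdac2 alleles are both floxed (Hdac1/2 lox/lox), each carried a stably integrated HDAC1 transgene, and all were grown on gelatine in serum with leukaemia inhibitory factor. HDAC1-WT expressed the unmutated protein, and HDAC1-E63R and HDAC1-Y48E expressed proteins with a single changed residue on the surface that binds partner proteins. Every line was sequenced untreated, with the endogenous enzymes present beside the transgene, and after 5 days with 1 µM 4-hydroxytamoxifen (OHT), which activates a Cre recombinase that deletes the endogenous genes, so that the untreated mutant lines are no mutant-only state. That duration is the one in the labels, and the methods of the study describe a shorter exposure followed by further culture. This gave 6 groups of 3 libraries and 18 libraries in all. The study calls the libraries of a group biological replicates, without saying whether they were separate cultures of a line or whether a line is a clone or a pool, so the p-values measure the spread between libraries of a line and not between independent lines.

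Polycomb proteins keep developmental genes silent. Polycomb repressive complex 2 (PRC2) places methyl groups on lysine 27 of histone H3 through EZH2 or its paralogue EZH1, which need EED and SUZ12 as core partners, and JARID2 helps to bring the complex to chromatin. Polycomb repressive complex 1 (PRC1) places ubiquitin on histone H2A through RNF2 (RING1B) or RING1, with CBX7 reading the methyl mark in canonical PRC1 of ESCs, and with PCGF6 or the CpG-island binder KDM2B in variant forms.

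Libraries held between 9019615 and 11454638 counts on genes, of which the members took 0.0992 to 0.140%, and no member had fewer than 55 counts in any library. Gene-level counts cannot separate the transgene from endogenous Hdac1, nor a floxed transcript from an intact one. Hdac2 lay at 169 to 208 CPM (counts scaled to the library size, as in all levels below) in untreated and 112 to 133 in OHT-treated HDAC1-WT cells, at 152 to 209.6 and 149.7 to 158 in HDAC1-E63R, and at 149 to 154 and 139 to 152 in HDAC1-Y48E. Hdac1 was higher in HDAC1-WT, at 201 to 210 CPM untreated and 169 to 179 after OHT. It lay at 94.9 to 110 and 112 to 131 in HDAC1-E63R, and at 97.9 to 104 and 110 to 113 in HDAC1-Y48E. The part of this difference in the comparisons between lines was not tested. The third untreated HDAC1-E63R library stood apart from its group. Its root mean square log2 distance to the mean of the other libraries of its group was 0.659, against 0.188 to 0.417 in the other 17 libraries. The highest of these, 0.338 and 0.417, were in the same group, measured against a mean that held this library. Its normalisation factor was 0.814, against 0.955 to 1.11. Since all 18 libraries shared an estimate of the spread, this library also touched comparisons it did not belong to, and results below whose call changed without it are given both ways. Over 10 ESC markers, the summed level was 8385 to 8536 CPM in untreated and 8756 to 9636 in OHT-treated HDAC1-WT cells, 5882 to 9383 and 4971 to 5302 in HDAC1-E63R, and 6506 to 6578 and 2771 to 2922 in HDAC1-Y48E. None of the 10 was at 0 throughout a group. Markers of fibroblasts (7 genes) summed to at most 94.3 CPM, those of primitive endoderm (6 genes) to at most 49.96 and those of trophoblast (6 genes) to at most 246, and the fibroblast genes Lum and Dcn were both at 0 in 4 of the 6 groups. The fibroblast sum was 23.4 to 25.2 CPM untreated and 35.9 to 41.9 after OHT in HDAC1-WT. It was 12.9 to 18.9 and 48.6 to 56.5 in HDAC1-E63R, and 23.0 to 27.2 and 81.7 to 94.3 in HDAC1-Y48E. The primitive endoderm sum was 38.1 to 39.8 and 31.4 to 39.5 in HDAC1-WT. In HDAC1-E63R it was 12.5 to 20.4 and 21.2 to 26.6, and in HDAC1-Y48E 17.1 to 24.0 and 44.1 to 49.96. In bulk RNA, fewer cells of a type and less RNA per cell cannot be told apart, and the part of these shifts in the results below was not tested.

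The promoters of Ezh1 and Ezh2 are shown because these were the members that changed by more than 2-fold in any comparison. Both are 300 bases long, from 250 bases before to 50 after the start of the gene in RefSeq (GRCm38.p6, minus strand), with CG dinucleotides in capitals. The gene start used for positions below (GENCODE M21) lies farther upstream for Ezh2, so that its window falls inside the gene as given there. The Ezh1 window, chr11:101226414-101226713, holds 23 CG and the Ezh2 window, chr6:47594981-47595280, holds 31, where the median over 32851 promoters was 7, and 21.5% and 10.6% of these promoters hold as many or more.
Ezh1: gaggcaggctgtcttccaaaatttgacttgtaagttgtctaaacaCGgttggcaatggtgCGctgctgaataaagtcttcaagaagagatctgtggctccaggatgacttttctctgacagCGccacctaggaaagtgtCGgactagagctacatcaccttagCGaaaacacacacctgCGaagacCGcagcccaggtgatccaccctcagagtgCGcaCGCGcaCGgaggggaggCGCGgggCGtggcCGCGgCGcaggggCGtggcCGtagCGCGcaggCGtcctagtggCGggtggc
Ezh2: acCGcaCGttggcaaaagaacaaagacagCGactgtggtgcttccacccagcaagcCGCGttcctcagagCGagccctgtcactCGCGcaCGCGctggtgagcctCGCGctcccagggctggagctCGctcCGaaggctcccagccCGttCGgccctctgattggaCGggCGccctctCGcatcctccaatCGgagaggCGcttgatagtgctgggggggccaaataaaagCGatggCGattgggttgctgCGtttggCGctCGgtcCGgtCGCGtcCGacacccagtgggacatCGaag

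Ezh1, the less active of the PRC2 methyltransferases, was the member that moved with OHT in both mutant lines. It lies on chromosome 11 (101191115 to 101226463, minus strand, mm10), and its exons overlap no exon of another gene. In HDAC1-WT cells its level was 53.9, 46.9 and 53.3 CPM untreated and 56.5, 51.7 and 50.5 CPM after OHT. In HDAC1-E63R cells it was 82.8, 76.2 and 57.2 CPM untreated and 39.0, 33.8 and 33.6 CPM after OHT. In HDAC1-Y48E cells it was 68.1, 72.2 and 78.0 CPM untreated and 31.2, 39.5 and 29.0 CPM after OHT. The treated and untreated libraries overlapped in HDAC1-WT and were fully separate in both mutant lines, and the lowest untreated value was that of the library that stood apart. A gene was called where its adjusted p was under 0.01. Ezh1 fell by 1.02 on the log2 scale in HDAC1-E63R (SE 0.14, adjusted p = 1.75e-05, edgeR quasi-likelihood test) and fell by 1.13 in HDAC1-Y48E (SE 0.14, adjusted p = 1.32e-06), while the change in HDAC1-WT was 0.04 (SE 0.14, adjusted p = 0.967). Without the library that stood apart, the change in HDAC1-E63R was -1.17 (adjusted p = 1.57e-10).

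The effect of OHT on Ezh1 differed between lines by the interaction test. The difference between HDAC1-E63R and HDAC1-WT was -1.07 on the log2 scale (SE 0.20, adjusted p = 0.00193), and the difference for HDAC1-Y48E against HDAC1-WT was -1.17 (SE 0.20, adjusted p = 0.000165). Between the mutant lines the difference was -0.11, with a 95% interval from -0.54 to 0.33 (adjusted p = 0.846), which leaves room for unequal effects of that size. The untreated mutant lines began from a higher level, by 0.49 in HDAC1-E63R and by 0.50 in HDAC1-Y48E, values that did not pass the threshold of 0.01 (adjusted p = 0.0108 and 0.0119) although the libraries were separate. Without the library that stood apart these became 0.64 (adjusted p = 3.2e-05) and 0.51 (adjusted p = 0.000226), and both passed. After OHT the order was turned, and Ezh1 was lower than in OHT-treated HDAC1-WT cells, with differences of -0.58 (adjusted p = 0.00334) in HDAC1-E63R and -0.67 (adjusted p = 0.000532) in HDAC1-Y48E. The HDAC1-E63R call was lost when the first or second HDAC1-WT or the second or the third HDAC1-E63R OHT library was left out, which gave adjusted p from 0.0101 to 0.0210.

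**Figure D1:**
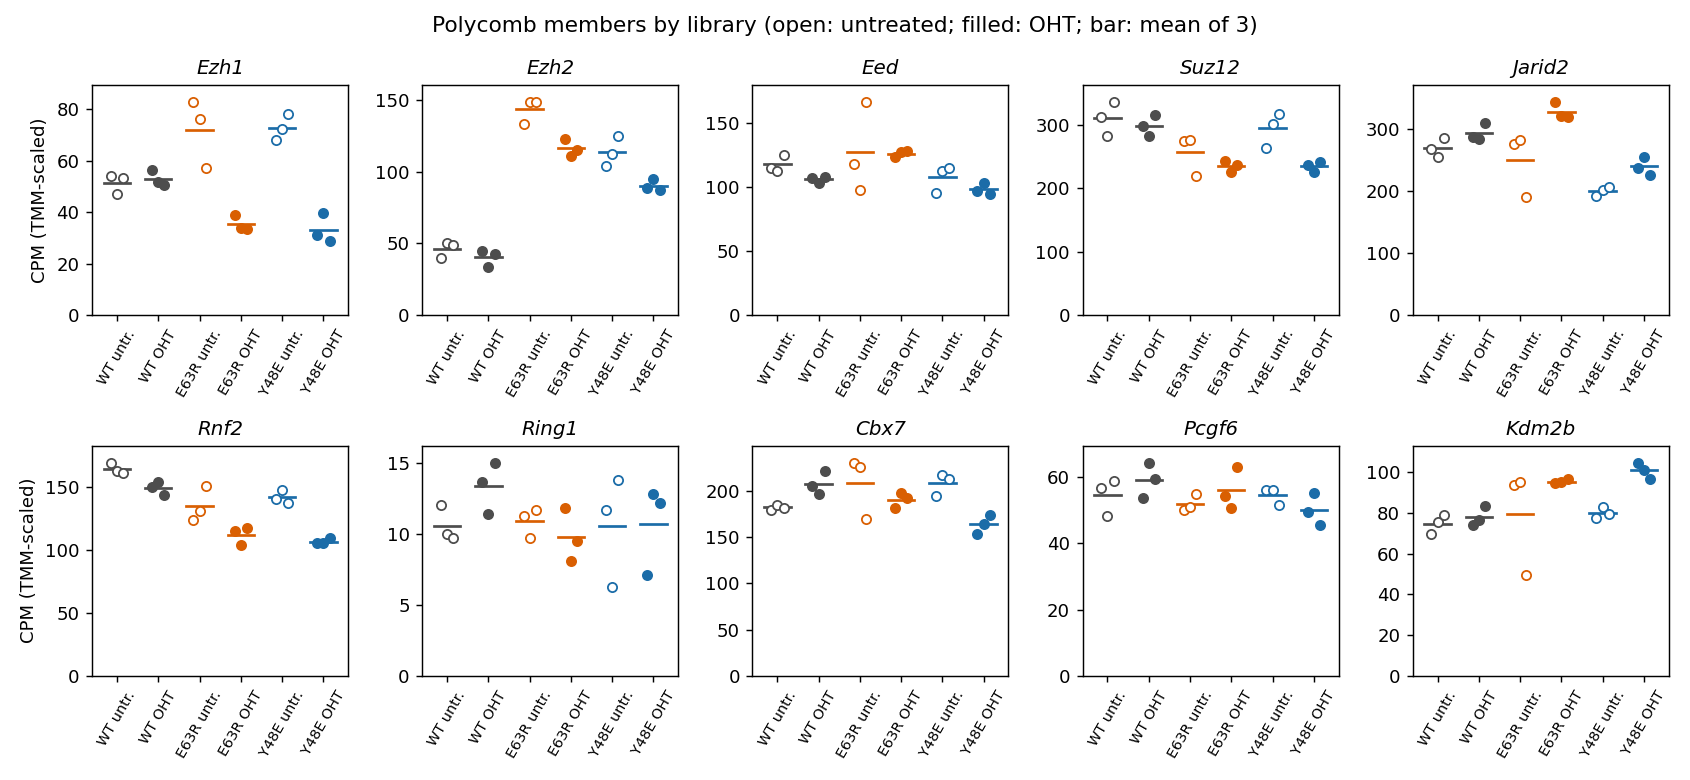
Level of each member in CPM, after scaling library sizes by the trimmed mean of M values (TMM), in each of the 18 libraries; open circles are untreated, filled circles OHT-treated, and bars the mean of 3. Ezh1 separated untreated from OHT-treated libraries in the mutant lines only, and Ezh2 separated the HDAC1-WT line, at 33.6 to 50.3 CPM, from both mutant lines, at 87.3 to 148.8 CPM.

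Ezh2, the main methyltransferase of PRC2 in dividing cells, differed between the lines rather than with OHT. In HDAC1-WT cells it was at 40.0, 50.3 and 49.1 CPM untreated and at 45.1, 33.6 and 42.6 CPM after OHT. In HDAC1-E63R cells it was at 133.3, 148.6 and 148.8 CPM untreated and at 123.0, 111.0 and 115.1 CPM after OHT. In HDAC1-Y48E cells it was at 104.0, 112.2 and 124.8 CPM untreated and at 88.7, 94.9 and 87.3 CPM after OHT. Every library of a mutant line lay above every HDAC1-WT library. The untreated mutant lines were higher than untreated HDAC1-WT by 1.63 on the log2 scale in HDAC1-E63R (SE 0.12, adjusted p = 2.44e-09), a 3.09-fold difference, and by 1.29 in HDAC1-Y48E (SE 0.12, adjusted p = 9.27e-08), a 2.45-fold difference. After OHT the differences from OHT-treated HDAC1-WT were 1.53 (adjusted p = 3.47e-09) and 1.16 (adjusted p = 7.53e-08). Within lines, the change with OHT was -0.20 in HDAC1-WT (adjusted p = 0.642), -0.30 in HDAC1-E63R (adjusted p = 0.0617) and -0.33 in HDAC1-Y48E (adjusted p = 0.0264), and none of these passed. Without the library that stood apart, the HDAC1-Y48E value was -0.34 (adjusted p = 0.00251) and did.

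The Ezh2 gene lies on chromosome 6 (47530139 to 47595341, minus strand, mm10), and many genes of that chromosome were higher in the mutant lines as well. This was examined after the Ezh2 values were seen. Over the 942 tested genes of chromosome 6, the median log2 difference between untreated lines and HDAC1-WT was 0.45 for HDAC1-E63R and 0.48 for HDAC1-Y48E. Chromosome 8 stood at 0.41 and 0.32, and the medians of the 18 other chromosomes lay between -0.20 and 0.02. Of the 17 genes within 1 Mb of Ezh2 that averaged at least 5 CPM, 15 were above 0 in HDAC1-E63R and 13 were called higher, with a median of 0.97, and 17 were above 0 in HDAC1-Y48E and 12 were called higher, with a median of 1.06. None was called lower. The chromosome medians without the library that stood apart were 0.43 and 0.49 over 990 genes, and 12 and 13 of the 17 neighbours were called higher. With all libraries, 67 of the 942 genes exceeded the Ezh2 value in untreated HDAC1-E63R and 96 in untreated HDAC1-Y48E. Against OHT-treated HDAC1-WT, 126 genes exceeded it in OHT-treated HDAC1-E63R and 262 in OHT-treated HDAC1-Y48E. In each of these comparisons the highest of the 17 neighbours also lay above Ezh2. The part of the chromosome-wide shift in the Ezh2 difference was not tested. The same holds for any other gene compared between lines below that lies on chromosome 6 or 8. With OHT in HDAC1-Y48E, the X chromosome had a median of 0.34, and the next highest, chromosome 14, one of 0.14. The X median was 0.31 for the difference of this effect from that in HDAC1-WT, and 0.29 between OHT-treated HDAC1-Y48E and HDAC1-WT. The part of this shift in X-linked genes below, such as Bcorl1, Ezhip and Kdm6a, was not tested.

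**Figure D2:**
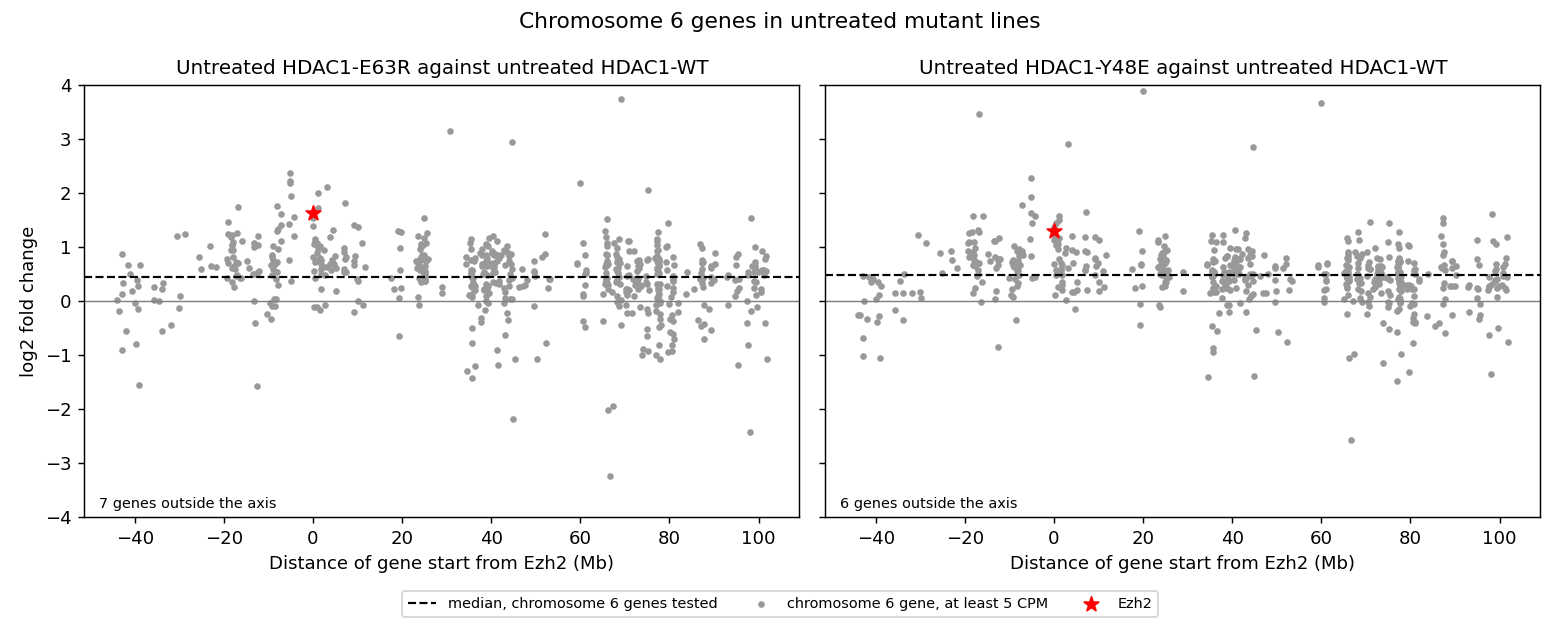
Log2 difference between each untreated mutant line and untreated HDAC1-WT for genes of chromosome 6 with at least 5 CPM, against the distance of the gene's start from Ezh2 in megabases; the star is Ezh2 and the dashed line the median over all 942 genes tested, at 0.45 and 0.48. A few genes lie outside the axis. Most genes lay above 0, and the genes within 1 Mb of Ezh2 centred near 1.

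Eed (chromosome 7, 89954654 to 89980983, minus strand) and Suz12 (chromosome 11, 79993106 to 80034123, plus strand) encode the other core subunits of PRC2. On levels per length in untreated HDAC1-WT cells, Suz12 was the most abundant member, at 62.8 ± 5.5 CPM per kb of exon (SD, n = 3), before Rnf2 at 39.9 ± 1.1. Eed at 30.8 ± 1.7, Cbx7 at 28.0 ± 0.43 and Jarid2 at 27.8 ± 1.6 came next, the last pair within their spread, and Pcgf6 followed at 10.9 ± 1.1. Ezh2, Ezh1 and Kdm2b lay within their spread of each other at 6.96 ± 0.84, 6.90 ± 0.52 and 6.88 ± 0.43, and Ring1 was lowest at 3.26 ± 0.39. The length merged all annotated exons of a gene, so this order depends on which transcripts the cells used, which was not tested. In HDAC1-Y48E cells Suz12 was at 265, 301 and 318 CPM untreated and at 236, 226 and 242 CPM after OHT. These libraries did not overlap, and the change of -0.33 (SE 0.10) just missed the threshold (adjusted p = 0.0136), which it passed without the library that stood apart (-0.33, adjusted p = 5.75e-05) or without the first untreated HDAC1-Y48E library (-0.40, adjusted p = 0.00885). The OHT-treated HDAC1-Y48E libraries were below those of OHT-treated HDAC1-WT, at 298, 283 and 316 CPM, with a difference of -0.35 (adjusted p = 0.0088), a call that was lost when any 1 of the 6 libraries compared was left out (adjusted p from 0.0129 to 0.0408). In HDAC1-WT and HDAC1-E63R the change of Suz12 with OHT was -0.05 and -0.13 (adjusted p = 0.941 and 0.412). With the library that stood apart left out, the HDAC1-E63R change was -0.23 (adjusted p = 0.02004), and the difference between OHT-treated HDAC1-E63R and HDAC1-WT, -0.34 (adjusted p = 0.0149) with all libraries, passed (-0.34, adjusted p = 5.72e-05). Eed was at 94.8 to 128 CPM in 17 of the 18 libraries, and its change with OHT was -0.15, -0.01 and -0.13 in the lines (adjusted p = 0.808, 0.965 and 0.460). The remaining value, 167 CPM, was in the library that stood apart, without which the HDAC1-E63R change was 0.23 (adjusted p = 0.0565). Without it, Eed was also called lower in OHT-treated HDAC1-Y48E than in OHT-treated HDAC1-E63R (-0.36, adjusted p = 0.000431), where all libraries gave -0.36 (adjusted p = 0.0696). Strand use in counting was not stated, and 6.82% of the exon bases of Eed and 3.60% of those of Suz12 overlap a gene on the opposite strand.

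Jarid2, the accessory subunit (chromosome 13, 44729474 to 44921643, plus strand), had a higher mean after OHT in every line, without passing the threshold. The change was 0.13 in HDAC1-WT (adjusted p = 0.811), 0.40 in HDAC1-E63R (adjusted p = 0.0151) and 0.26 in HDAC1-Y48E (adjusted p = 0.0716). Untreated HDAC1-E63R libraries were at 277, 282 and 190.1 CPM and treated ones at 344, 322 and 319. The lowest was the library that stood apart, without which the change in HDAC1-E63R was 0.23 (adjusted p = 0.0108). It passed without the first or the second untreated library (0.48, adjusted p = 0.00902, and 0.49, adjusted p = 0.0043). In HDAC1-Y48E, untreated libraries were at 192, 202 and 207 CPM and treated ones at 238, 256 and 227, and without that library the change of 0.26 passed (adjusted p = 0.000679). Between lines, untreated HDAC1-Y48E differed in Jarid2 from untreated HDAC1-WT by -0.43 (adjusted p = 0.0105) and from untreated HDAC1-E63R, with overlapping libraries, by -0.32 (adjusted p = 0.128). After OHT it differed from HDAC1-WT by -0.29 (adjusted p = 0.0458) and from HDAC1-E63R by -0.45 (adjusted p = 0.00815), the only one of these that passed. The last call was lost when any 1 of the 6 libraries compared was left out (adjusted p from 0.0163 to 0.04996). All 4 passed without the library that stood apart, at -0.43 (adjusted p = 6.24e-07), -0.48 (adjusted p = 2.12e-06), -0.29 (adjusted p = 0.000113) and -0.46 (adjusted p = 1.3e-07).

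Rnf2, the main ubiquitin ligase of PRC1 in ESCs (chromosome 1, 151458004 to 151500955, minus strand), was the only member besides Ezh1 to pass the threshold with OHT when all 18 libraries were fitted. In HDAC1-Y48E cells it was at 141, 148 and 138 CPM untreated and at 105, 106 and 109.8 CPM after OHT, with no overlap. It fell by 0.41 on the log2 scale (SE 0.09, adjusted p = 0.00124). In HDAC1-E63R the change was -0.27 (adjusted p = 0.0401) and in HDAC1-WT, from 169.7, 163 and 161 to 150.04, 154 and 144 CPM, it was -0.14 (adjusted p = 0.691). The difference between the effects in HDAC1-Y48E and HDAC1-WT was -0.27, with a 95% interval from -0.56 to 0.02 (adjusted p = 0.154), so the effect was not shown to differ between the lines. After OHT, Rnf2 was lower than in OHT-treated HDAC1-WT cells, with differences of -0.41 in HDAC1-E63R (adjusted p = 0.00198) and -0.48 in HDAC1-Y48E (adjusted p = 0.000239). The HDAC1-E63R call was lost without the second HDAC1-WT or the second HDAC1-E63R OHT library (adjusted p = 0.0120 and 0.0197). Between untreated HDAC1-E63R and HDAC1-WT the Rnf2 difference was -0.28 (adjusted p = 0.0285), and it passed without the library that stood apart (-0.36, adjusted p = 0.000333). Ring1, its paralogue (chromosome 17, 34020792 to 34024680, minus strand), was the least abundant member, at 6.26 to 15.0 CPM, and its changes with OHT were 0.34, -0.15 and 0.02 with standard errors of 0.26 (adjusted p = 0.747, 0.729 and 0.966).

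Cbx7, the methyl-reading subunit of canonical PRC1 (chromosome 15, 79915807 to 79971119, minus strand), took opposite signs in the lines. In HDAC1-WT it was at 179, 185 and 181 CPM untreated and at 205, 196 and 222 CPM after OHT, a change of 0.19 (adjusted p = 0.601). In HDAC1-Y48E it was at 194, 216 and 213 CPM untreated and at 153, 164 and 174 CPM after OHT, a change of -0.34 (SE 0.11, adjusted p = 0.0122) that passed without the library that stood apart (-0.35, adjusted p = 2.54e-05). Treated and untreated libraries did not overlap in either line, with the treated ones higher in HDAC1-WT and lower in HDAC1-Y48E. The interaction was -0.53 (SE 0.15, adjusted p = 0.0132), which did not pass, and without the library that stood apart it was -0.54 (adjusted p = 1.2e-05), which did. For HDAC1-E63R the change was -0.13 (adjusted p = 0.400) and the interaction with HDAC1-WT -0.32 (adjusted p = 0.230). Without that library they were -0.26 (adjusted p = 0.00595) and -0.45 (adjusted p = 0.0012). Cbx7 then also passed as higher in untreated HDAC1-E63R than in HDAC1-WT (0.33, adjusted p = 0.000489, against 0.20, adjusted p = 0.185) and as lower in OHT-treated HDAC1-Y48E than in HDAC1-WT (-0.34, adjusted p = 2.76e-05, against -0.34, adjusted p = 0.0124).

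The variant PRC1 members gave no call in any comparison with all 18 libraries. Pcgf6 (chromosome 19, 47033617 to 47050906, minus strand) was at 45.6 to 64.3 CPM, with changes after OHT of 0.12, 0.11 and -0.12 (adjusted p = 0.840, 0.552 and 0.423). Kdm2b (chromosome 5, 122870665 to 122989823, minus strand) was at 69.8 to 83.3 CPM in HDAC1-WT. In HDAC1-Y48E it went from 77.8, 83.0 and 79.6 CPM to 104.8, 101.3 and 96.9 CPM with no overlap, a change of 0.33 (SE 0.16, adjusted p = 0.0876) that passed without the library that stood apart (0.33, adjusted p = 0.000667). In HDAC1-E63R, 2 untreated libraries were at 93.8 and 95.2 CPM and the library that stood apart at 49.6, and treated ones were at 94.9 to 96.7, so that the change of 0.26 (adjusted p = 0.233) became 0.01 without it (adjusted p = 0.935). Kdm2b then passed as higher than HDAC1-WT in untreated HDAC1-E63R (0.34, adjusted p = 0.00268, against 0.09, adjusted p = 0.709). It also passed in OHT-treated HDAC1-E63R (0.30, adjusted p = 0.00275, against 0.29, adjusted p = 0.170) and HDAC1-Y48E (0.37, adjusted p = 0.000137, against 0.37, adjusted p = 0.0564). Kdm2b shares 615 bases at full identity with the processed pseudogene Gm12397, so its counts are uncertain to that extent, and 7.60% of its exon bases overlap genes on the opposite strand. That share was 2.61% for Ezh2, 3.83% for Rnf2 and 1.54% for Cbx7.

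Counted together, 0 of the 10 members were called after OHT in HDAC1-WT, where 0.0585% of all tested genes were, and 0 had an unadjusted p under 0.05. DESeq2 called 0 there as well. In HDAC1-E63R 1 of 10 was called against 14.3% of all genes, and in HDAC1-Y48E 2 of 10 against 30.9%. All these calls were lower, the direction of 6.82% and 14.7% of all genes. By the further requirement of a more than 2-fold change, Ezh1 alone was left in each line, beside 5.91% and 16.6% of all genes. The median log2 change over the 10 members was 0.05, -0.13 and -0.23 in HDAC1-WT, HDAC1-E63R and HDAC1-Y48E, and over all tested genes 0, 0.03 and 0.05. Without the library that stood apart, 0, 2 and 7 members were called, against 1.39%, 18.5% and 41.1% of 19503 genes. The 7 in HDAC1-Y48E were Ezh1, Ezh2, Suz12, Rnf2 and Cbx7, which fell, and Jarid2 and Kdm2b, which rose.

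By interaction, 1 of 10 was called for HDAC1-E63R against HDAC1-WT (2.45% of all genes), 1 of 10 for HDAC1-Y48E against HDAC1-WT (12.6%), both Ezh1, and 0 of 10 between the mutants (1.95%), where 0 had an unadjusted p under 0.05 and DESeq2 called 0. Between untreated lines, 1 of 10 was called in HDAC1-E63R and 1 of 10 in HDAC1-Y48E against HDAC1-WT (16.9% and 12.2% of all genes, and 9.04% and 6.42% in the higher direction), both Ezh2, and 0 of 10 in HDAC1-Y48E against HDAC1-E63R (1.85%), where 2 had an unadjusted p under 0.05 and DESeq2 called 0. Between OHT-treated lines the counts were 3 of 10 for HDAC1-E63R against HDAC1-WT (Ezh1, Ezh2, Rnf2), 4 of 10 for HDAC1-Y48E against HDAC1-WT (these and Suz12) and 1 of 10 between the mutants (Jarid2), where 19.3%, 31.8% and 10.4% of all genes were called. Without the library that stood apart, the counts were 2, 2 and 0 by interaction, 5, 3 and 1 between untreated lines, and 5, 7 and 3 between OHT-treated lines. All genes were then called at 6.53, 23.1 and 7.45%, at 20.5, 21.4 and 4.67%, and at 29.5, 41.8 and 19.9% in the same order. Ezh2 joined Eed and Jarid2 in the last count (-0.37, adjusted p = 0.00179, against -0.37, adjusted p = 0.0324). These comparisons share control libraries, so their counts are not independent of each other.

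**Figure D3:**
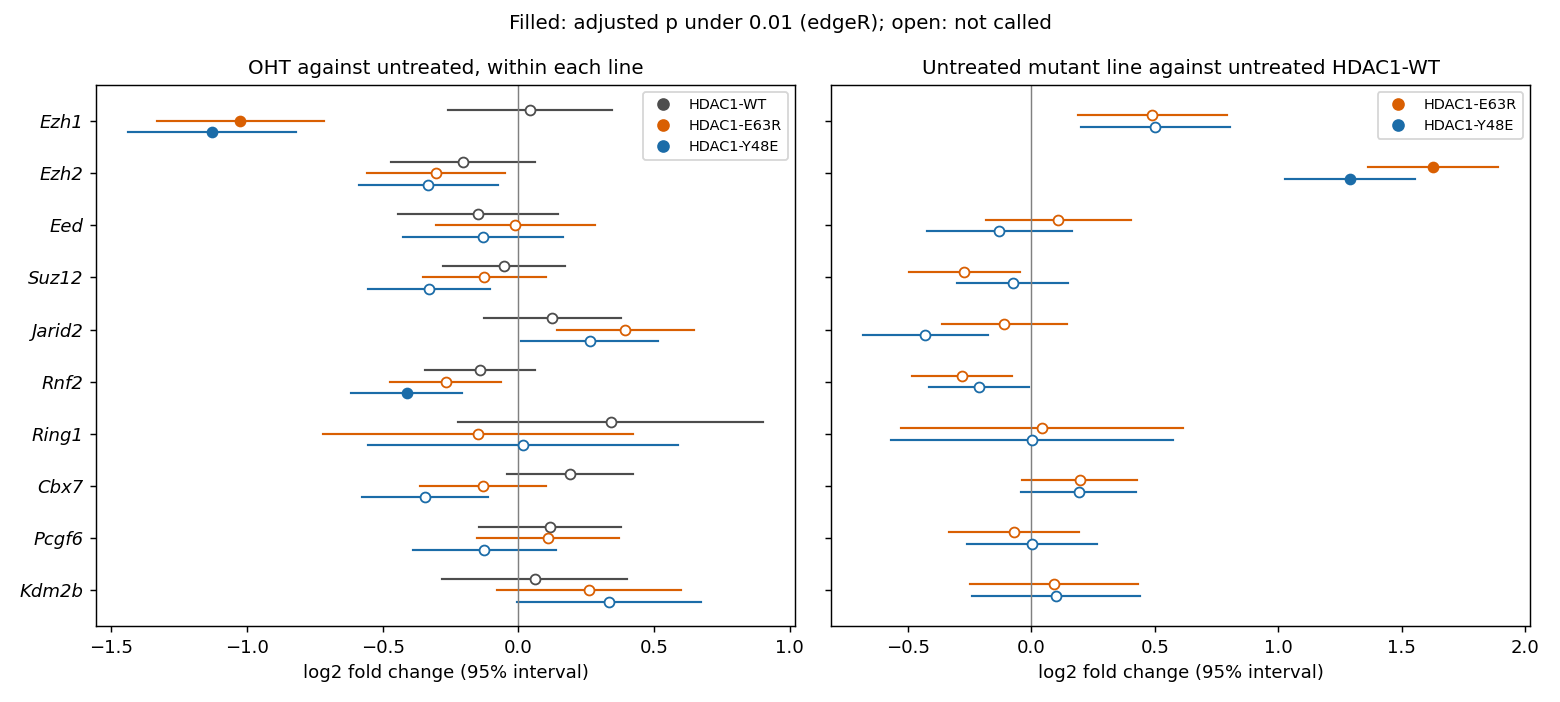
Log2 change of each member with its 95% interval; left, OHT against untreated within each line, and right, untreated mutant lines against untreated HDAC1-WT. Filled symbols have an adjusted p under 0.01 with all 18 libraries: Ezh1 in both mutant lines and Rnf2 in HDAC1-Y48E on the left, and Ezh2 in both lines on the right.

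The balance of the paralogous enzymes was compared on levels per exon length. With all annotated exons merged, the size of a share depends on which transcripts the cells used. Ezh1 made up 49.9% ± 4.6 of Ezh1 plus Ezh2 in untreated HDAC1-WT cells and 54.2% ± 3.4 after OHT (SD, n = 3; exact two-sided permutation p = 0.3). In HDAC1-E63R its share went from 31.0% ± 5.1 to 21.5% ± 0.71, and in HDAC1-Y48E from 36.5% ± 0.54 to 24.7% ± 2.2 (exact permutation p = 0.1 each, the smallest that 3 against 3 libraries allow). The share after OHT was below every untreated value in both mutant lines. Ring1 made up 7.53% ± 0.63 to 11.2% ± 2.9 of Ring1 plus Rnf2 over the 6 groups, and its libraries overlapped in the mutant lines. In HDAC1-WT they did not, at 7.11 to 8.26% untreated and 8.63 to 11.7% after OHT (exact permutation p = 0.1).

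**Figure D4:**
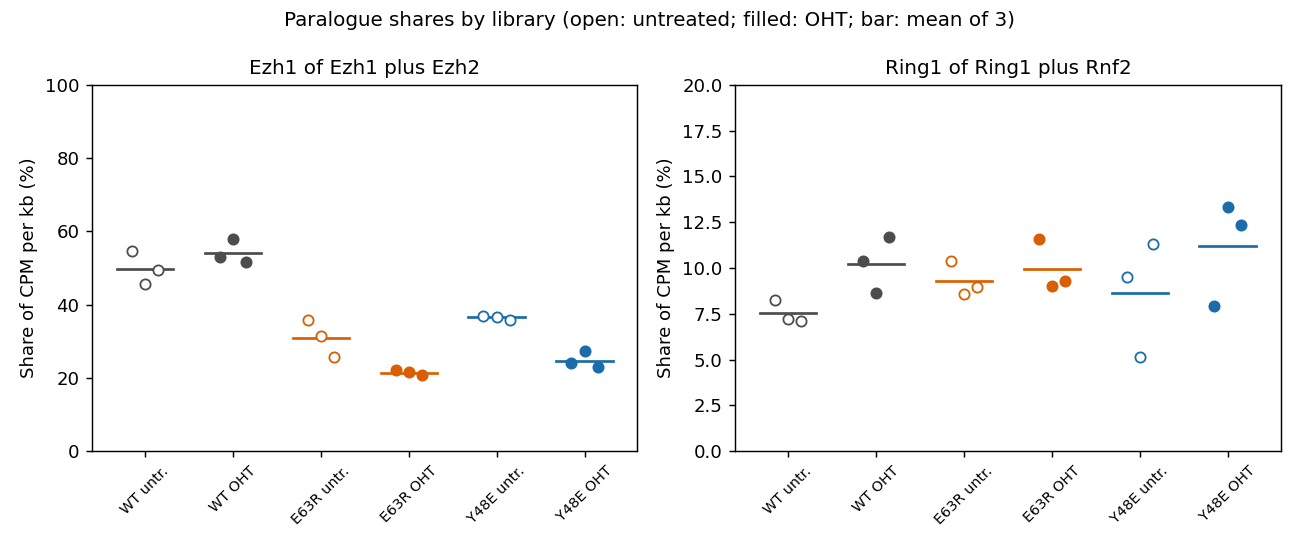
Share of Ezh1 in the summed level per kb of Ezh1 and Ezh2 (left) and of Ring1 in that of Ring1 and Rnf2 (right), in percent, by library, with bars at the mean of 3; the vertical scales differ. The Ezh1 share was 45.5 to 58.0% in HDAC1-WT libraries and 20.7 to 37.0% in those of the mutant lines. Between lines, this share holds the Ezh2 difference, and the part of the chromosome 6 shift in it was not tested.

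Other genes of the same machinery were taken from lists of subunits, opposing enzymes and targets, whose counts are to be read beside the 14.3% of all genes called after OHT in HDAC1-E63R, the 30.9% in HDAC1-Y48E, and the 16.9% and 12.2% called in the untreated lines against HDAC1-WT. Of 9 other PRC2 genes, 2 were called after OHT in each mutant line, 1 in each direction. Rbbp4, a histone-binding subunit, fell by 0.54 in HDAC1-E63R (adjusted p = 0.00138), or by 0.33 without the library that stood apart (adjusted p = 3.19e-05), and by 0.60 in HDAC1-Y48E (adjusted p = 0.000222). Mtf2, a Polycomb-like subunit that binds CpG-rich DNA, rose by 0.47 in HDAC1-E63R (adjusted p = 0.00116), and Ezhip, an inhibitor of PRC2, rose by 0.76 in HDAC1-Y48E (adjusted p = 0.00608). Between untreated lines, 4 were called in HDAC1-E63R and 3 in HDAC1-Y48E. Mtf2 was lower than in HDAC1-WT, with differences of -0.70 (adjusted p = 1.51e-05) in HDAC1-E63R and -0.75 (adjusted p = 8.34e-06) in HDAC1-Y48E, and Rbbp7, the paralogue of Rbbp4, higher, by 0.81 (adjusted p = 1.62e-05) and 0.44 (adjusted p = 0.00746). Phf19 and Epop, further accessory subunits, were higher in HDAC1-E63R by 0.62 (adjusted p = 0.00252) and 0.52 (adjusted p = 0.00531), the latter by 0.29 without the library that stood apart (adjusted p = 0.00856), and Lcor was lower in HDAC1-Y48E (-1.19, adjusted p = 0.00834).

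Of 10 other canonical PRC1 genes, 4 were called after OHT in HDAC1-E63R and 6 in HDAC1-Y48E, with equal numbers higher and lower in each. Phc1, a polyhomeotic subunit that lets PRC1 oligomerise, went from 407, 443 and 448 CPM (lowest, median and highest) to 86.2, 93.9 and 98.5 CPM in HDAC1-Y48E, so that the treated libraries lay far below the untreated. It fell by 2.22 on the log2 scale (adjusted p = 1.31e-11), and by 0.83 in HDAC1-E63R (adjusted p = 4.25e-05). Its paralogue Phc2 rose, by 0.93 (adjusted p = 1.15e-05) and 1.41 (adjusted p = 8.78e-09). Pcgf2, a partner of RNF2, fell by 0.76 in HDAC1-E63R (adjusted p = 0.000146), and Cbx2, a chromodomain subunit, rose by 0.61 (adjusted p = 0.00662), a call lost without the library that stood apart (0.48, adjusted p = 0.0174). In HDAC1-Y48E, Cbx8, a relative of Cbx2, rose by 1.66 (SE 0.48, adjusted p = 0.00714) from a low level, with a mean of 4.88 CPM over the groups compared. Scmh1 rose there by 0.74 (adjusted p = 0.00063). Between untreated lines, 2 were called in HDAC1-E63R, Bmi1, a relative of Pcgf2, as lower (-0.77, adjusted p = 0.00614, and not without the library that stood apart, -0.66, adjusted p = 0.0207) and Phc1 as higher (0.46, adjusted p = 0.00746). Phc1 lies on chromosome 6, whose median in that comparison was 0.45. In HDAC1-Y48E the edgeR test called 0, and 4 had an unadjusted p under 0.05. Without the library that stood apart, 2 were called there, beside 21.4% of all genes.

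Of 17 other variant PRC1 genes, 2 were called after OHT in HDAC1-E63R, both lower, and 6 in HDAC1-Y48E, 2 higher and 4 lower. Max, the DNA-binding partner of MGA in the PCGF6 complex, fell by 0.75 in HDAC1-E63R (adjusted p = 2.96e-05) and by 0.79 in HDAC1-Y48E (adjusted p = 4.67e-06). Mga itself fell by 0.77 in HDAC1-Y48E (adjusted p = 0.00675), and Bcorl1, of the BCOR complex, and Yaf2, a partner of RNF2, rose there by 1.47 (adjusted p = 1.73e-05) and 0.77 (adjusted p = 0.000851). Pcgf1, also of the BCOR complex, fell by 0.77 in HDAC1-E63R (adjusted p = 0.00427), a call lost without the library that stood apart (-0.48, adjusted p = 0.0383). Between untreated lines, 7 were called in HDAC1-E63R and 3 in HDAC1-Y48E. Bcor was lower in HDAC1-E63R (-1.08, adjusted p = 0.000306), and Bcorl1 and Fbrsl1 were lower in both lines (-1.04 and -0.82 in HDAC1-E63R, -0.89 and -0.55 in HDAC1-Y48E). Pcgf1 was higher in HDAC1-E63R (0.76, adjusted p = 0.0038, and 0.48, adjusted p = 0.0375, without the library that stood apart), and Tfdp1, a partner of E2F factors, in HDAC1-Y48E (0.93, adjusted p = 1.85e-07). Tfdp1 lies on chromosome 8, whose median in the HDAC1-Y48E comparison was 0.32.

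Of 7 opposing enzymes, which remove the Polycomb marks or help to, 1 was called after OHT in HDAC1-E63R and 4 in HDAC1-Y48E, 2 in each direction. Kdm6b, an H3K27 demethylase, rose by 0.59 in HDAC1-E63R (adjusted p = 0.00891), a call lost without the library that stood apart (0.38, adjusted p = 0.0102), from an untreated level below HDAC1-WT (-0.72, adjusted p = 0.00174). Its relative Kdm6a fell by 0.68 in HDAC1-Y48E (adjusted p = 0.00362). Asxl3 and Asxl1, cofactors of the H2A deubiquitinase BAP1, moved apart in HDAC1-Y48E: Asxl3 rose by 2.86 (SE 0.85, adjusted p = 0.00935) and Asxl1 fell by 0.83 (SE 0.18, adjusted p = 0.000702). Asxl3 averaged only 3.45 CPM over the groups compared, and Asxl1 140 CPM. Usp16, an H2A deubiquitinase, rose by 0.65 (adjusted p = 0.000462). In untreated HDAC1-Y48E against HDAC1-WT the edgeR test called 0, and 2 had an unadjusted p under 0.05. Without the library that stood apart, 2 were called there, beside 21.4% of all genes.

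Of 25 Polycomb target genes, most of them developmental regulators, 17 had enough counts to be tested, and 3 were called after OHT in HDAC1-E63R (2 higher, 1 lower) and 4 in HDAC1-Y48E (2 higher, 2 lower). Hand1, a mesoderm and trophoblast factor, was at 2.52, 2.68 and 3.39 CPM (lowest, median and highest) in untreated and at 23.9, 30.7 and 32.3 CPM in treated HDAC1-E63R cells, and it rose by 3.34 (adjusted p = 1.8e-08). In HDAC1-Y48E it rose by 3.27 (adjusted p = 8.74e-09). Cdkn2a, the cell cycle inhibitor locus, rose by 1.02 in HDAC1-E63R (adjusted p = 0.00109) and by 1.60 in HDAC1-Y48E (adjusted p = 1.43e-06). Sox1, a neural factor, fell by 0.96 (adjusted p = 0.00734) and 1.31 (adjusted p = 0.000202), and Pax6, another, fell by 2.44 in HDAC1-Y48E (adjusted p = 0.000824).

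The untreated mutant lines already differed from HDAC1-WT at several of these targets, with 6 of 17 called in each, 1 higher and 5 lower. Pax6 was higher, by 3.09 in HDAC1-E63R (adjusted p = 0.000309) and 3.33 in HDAC1-Y48E (adjusted p = 0.000193). Cdkn2a was lower in HDAC1-E63R (-1.67, adjusted p = 3.37e-06) and Hand1 in HDAC1-Y48E (-2.06, adjusted p = 2.51e-05), so that their rises with OHT began below the HDAC1-WT level there. At most 4 genes were named in each line, so a gene named in 1 line only may differ in the other as well. Hoxb13 was lower in both lines (-2.69, adjusted p = 0.000114, and -3.92, adjusted p = 5.98e-06), Gata4 in HDAC1-E63R (-1.90, adjusted p = 0.000329) and Gata6 in HDAC1-Y48E (-2.59, adjusted p = 7.7e-05). Hoxb13 averaged 6.88 and 6.34 CPM over the groups compared for HDAC1-E63R and HDAC1-Y48E. The median log2 change of the 17 targets with OHT was -0.25, -0.15 and 0.30 in HDAC1-WT, HDAC1-E63R and HDAC1-Y48E, beside 0, 0.03 and 0.05 over all tested genes. In HDAC1-WT the edgeR test called 0 genes of each of these 5 lists, and 3, 1, 3, 2 and 1 genes of them, in the order given, had an unadjusted p under 0.05. The lists gave, without the library that stood apart, 2, 1, 0, 1 and 0 calls in HDAC1-WT, 3, 3, 4, 2 and 4 in HDAC1-E63R and 4, 6, 9, 6 and 5 in HDAC1-Y48E, with 18 targets tested and beside 1.39%, 18.5% and 41.1% of all genes. Between untreated lines and HDAC1-WT they then gave 4, 2, 8, 1 and 6 calls in HDAC1-E63R and 4, 2, 7, 2 and 6 in HDAC1-Y48E. All genes were called there at 20.5% and 21.4%. The summed trophoblast markers, of which Hand1 is one, were at 53.6 to 79.1 CPM in untreated and 149 to 156 CPM in treated HDAC1-E63R cells. They were at 62.9 to 75.7 and 90.9 to 99.3 CPM in HDAC1-Y48E. In HDAC1-WT they were at 199 to 215 and 213 to 246 CPM, so that the treated mutant lines stayed below that line. Their part in the Hand1 values was not tested.

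The 5 genes most like Ezh1 over the 6 group means, of 12635 compared, were Noxred1, Vapa, Ppm1b, Ctsa and Rpl37a, with Pearson's r from 0.993 to 0.997 across groups, which is given as a description. Their own log2 changes with OHT ran from -1.15 to -0.35 in HDAC1-E63R and from -1.36 to -0.39 in HDAC1-Y48E. Ctsa, a lysosomal carboxypeptidase, had the lowest value in both lines, and Ppm1b, a protein phosphatase, the nearest to 0.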

How the data were processed

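Total RNA of the 18 libraries was sequenced after NEBNext Ultra preparation. The authors aligned reads with HISAT2 (version 2.1.0) and SAMtools (version 1.9) to mm10 and counted them per gene with HTSeq, per the submitters' processing notes, and the HTSeq version, annotation and strand setting are not given in the sources used here. The deposited values are raw counts per gene and library. Entries naming no gene, 59.4 to 61.2% of each library (reads in no feature 42.9 to 45.9%), were left out of library sizes and tests, which left 9019615 to 11454638 counts. No pair of replicates agreed within sampling noise (lowest chi-square per degree of freedom 3.35).

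Counts were filtered with filterByExpr, scaled by TMM and fitted once over all 6 groups with the quasi-likelihood test of edgeR (version 4.0.16, R version 4.3.3), with Benjamini-Hochberg adjustment over 18791 genes and a call at adjusted p under 0.01. The study's stricter rule also asks for a more than 2-fold change. The 12 comparisons were OHT against untreated in each line, the differences of these effects, and the lines against each other in each state. CPM are TMM-scaled, exon lengths (all annotated exons of a gene merged) and positions are those of GENCODE M21, and paralogue shares were compared by exact permutation. The fit was tested on simulated data. The members and gene lists were chosen with earlier results of these data known. All members are named, and of each other list those called with at least 1 CPM and no overlap of libraries, at most 4 by size of change, and for Ezh1 the 5 genes of at least 5 CPM with the most similar group means. Each result was recomputed with scaling by relative log expression, without the filter, with a replicate block, with only the libraries compared, with DESeq2 (version 1.42.0), at a threshold of 0.05 and without each library in turn, and, chosen after seeing the data, leaving the third untreated HDAC1-E63R library out of every fit, the other gene lists and chromosome 6 included. Replicate numbers were not treated as pairs, since 3 of 9 correlations of same-numbered deviations exceeded 0.1.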

Additional observations from a re-analysis of the deposited data

Results flagged for a closer look

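The effect of OHT differed between lines, by the interaction test, for the following genes, given as log2 differences of the effects. Against HDAC1-WT, HDAC1-E63R differed by -1.07 for Ezh1, -0.87 for Pcgf2, -0.66 for Max and 3.47 for Hand1. HDAC1-Y48E differed from HDAC1-WT by -1.17 for Ezh1, 1.79 for Ezhip, -2.08 for Phc1, 0.92 for Phc2, -0.79 for Pcgf2, 1.57 for Bcorl1, -0.70 for Max, 0.50 for Tfdp1, 3.40 for Hand1 and 1.36 for Cdkn2a. Between the mutant lines, HDAC1-Y48E differed from HDAC1-E63R by -1.39 for Phc1. Groups of 3 libraries were too small for a test of single outlying libraries.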

How the results depend on the processing

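Of 1570 values of single members under the alternatives, 1470 kept their side of the threshold, 24 lost and 54 gained a call, and 22 moved. None of those called changed sign, while 63 of 1327 that were not called either way did, some of them among the 1470. The count of called members moved as follows, and the cause was not tested unless the alternative has fewer libraries or another threshold. After OHT, HDAC1-E63R went from 1 to 2 without the filter or with DESeq2 and to 3 at 0.05, and HDAC1-Y48E from 2 to 7 with only the libraries compared and to 5 at 0.05. The interaction of HDAC1-Y48E with HDAC1-WT went from 1 to 2 with only the libraries compared, DESeq2 or 0.05. Between untreated lines, HDAC1-E63R against HDAC1-WT went from 1 to 2 with relative log expression factors, no filter or DESeq2 and to 3 at 0.05, and HDAC1-Y48E against HDAC1-WT from 1 to 2 with relative log expression factors and to 3 with no filter, only the libraries compared, DESeq2 or 0.05. Between OHT-treated lines, only the libraries compared gave 6 in place of 3, 7 in place of 4 and 4 in place of 1. The last count was 0 with relative log expression factors and 2 at 0.05. With the replicate block that count was also 0, and HDAC1-Y48E against HDAC1-WT after OHT gave 3 in place of 4; the block changed no other count of called members. Leaving out 1 library gave 0 to 0 called members after OHT in HDAC1-WT, 1 to 2 in HDAC1-E63R and 2 to 7 in HDAC1-Y48E, 1 to 2, 1 to 2 and 0 to 0 by interaction, 1 to 5, 1 to 3 and 0 to 1 between untreated lines, and 1 to 5, 3 to 7 and 0 to 3 between OHT-treated lines, the highest in each case without the third untreated HDAC1-E63R library where they exceed the value with all 18. Over all genes, only the libraries compared called 0.711% after OHT in HDAC1-WT in place of 0.0585%, 2.71% in HDAC1-E63R in place of 14.3% and 46.4% in HDAC1-Y48E in place of 30.9%, by interaction 0.923, 22.8 and 1.21% in place of 2.45, 12.6 and 1.95%, between untreated lines 3.89, 23.6 and 0.296% in place of 16.9, 12.2 and 1.85%, and between OHT-treated lines 33.5, 44.8 and 29.3% in place of 19.3, 31.8 and 10.4%. The change of the Ezh1 share was 2.15 to 6.75 percentage points in HDAC1-WT, -12.2 to -7.13 in HDAC1-E63R and -13.0 to -10.9 in HDAC1-Y48E when 1 library was left out. Ring1, at 55 or more counts a library, had the widest intervals.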
